A study of Mus musculus with 16 samples.

Results

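Motile cilia beat through a microtubule scaffold, the axoneme, and 71 genes of that scaffold and of the transport that builds it were followed in lungs of mice that inhaled lipopolysaccharide (LPS). The members were taken by gene symbol from 16504 named genes on the array. The families were dyneins (Dnah, Dnai, Dnal and Dynlrb2), tektins (Tekt), radial spoke proteins (Rsph) and intraflagellar transport subunits (Ift). Bardet-Biedl proteins (Bbs), cilia and flagella associated proteins (Cfap) and central apparatus proteins (Spag6, Spag16 and Spag17 symbols) were also taken. Tppp3, Ccdc113, Cdhr3 and Sntn, genes of ciliated cells, were added by name, and 2 of these 4 (Tppp3 and Ccdc113) were measured. The rule reads symbols and no measured value, though it was set with earlier results of these data known. All 71 members were tested.

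The LPS group was male C57/BL6 mice, 8 weeks old, that breathed aerosolised LPS for 5 days, with lungs taken when the last inhalation ended. The control group was mice of the same strain, sex and age that breathed air. Each group had 4 pools of lung RNA, each from 3 animals, so that animals within a pool cannot be seen apart. Every pool was set against a universal mouse reference RNA on 2 two-colour arrays with the dyes exchanged, and a level below is log2(lung/reference), the mean of those arrays. Such a level compares a gene in lung with the same gene in the reference, and it does not rank the RNA amounts of different genes.

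In the airways, multiciliated cells carry motile cilia whose coordinated beat moves mucus and trapped particles out of the lung. Each axoneme holds a ring of microtubule doublets around a central pair. Dynein arms on the doublets produce the sliding force, and radial spokes and the central apparatus set the pattern of bending. Cilia cannot make protein, so intraflagellar transport carries cargo along the axoneme: IFT-B complexes travel outwards with kinesin, IFT-A complexes are needed for the return with dynein, and the BBSome links membrane cargo to these trains. Dynein arms, spokes and central apparatus occur in motile cilia, while the transport complexes also serve the primary cilia that most cell types can form.

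Signal in both channels was present on 96.1% to 99.5% of the 22575 spots of each array, and the median lung signal lay between 4.27 and 28.2 times the local background. The 2 arrays of a pool correlated at r between 0.418 and 0.899 across spots. The deposited Cy3 file of air pool 4 joins images of different arrays, so air pool 4 rests on its Cy5 array alone. The lung identity was clear, since 18 alveolar type 2 cell markers, the surfactant genes among them, had a median percentile of 99.7 among all features in air pools. Images were read with program version 2.2.3 for LPS pools 1 and 2 and air pools 3 and 4, and with version 2.2.4 for the other pools. The image names carry a week number, which reads 1 on each LPS array, 4 on those of the air pools numbered 1 and 2, and 8 on the remaining air arrays; whatever it marks cannot be told apart from the exposure. Genes could be named once the annotation had been laid over the array grid with both axes exchanged and turned, under which 2 probes of the same gene correlated at r = 0.523 against 0.0456 without it.

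In air pools the structural genes of motile cilia, tektins apart, stood high in lung relative to the reference, and most classes of them had higher median percentiles than the transport genes. The median member lay at percentile 76.9 of all features by its mean level. The central apparatus genes had a median percentile of 92.3, the radial spoke genes 85.6, the dynein heavy chains 82.5, the Cfap genes 79.2 and the dynein intermediate and light chains 72.5. Genes of the BBSome and its assembly were at 69.9, IFT-B subunits at 59.9, tektins at 54.7 and IFT-A subunits at 20.9. The IFT-A median rests on 3 genes, and the probes of Ift140, 1 of these, gave unlike levels. Its brightest probe, used here, read -0.40, -0.02, -1.11 and -1.51 in air pools 1 to 4. A dimmer probe read 0.76, 0.77, -0.34 and 0.09. Probes of some dynein heavy chains were also unlike. The brightest probe of Dnah1 averaged -0.25 in air pools, while a dimmer one read 1.71, 1.38, 1.27 and 1.84. For Dnah17 the brightest averaged 0.29, while a dimmer one read -1.86, -1.31, -0.58 and -0.90. Of the 71 members, 36 were above the reference in all 4 air pools and 10 were below it in all 4. These percentiles depend on what the reference RNA contains, and they are given without a test.

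**Figure D1:**
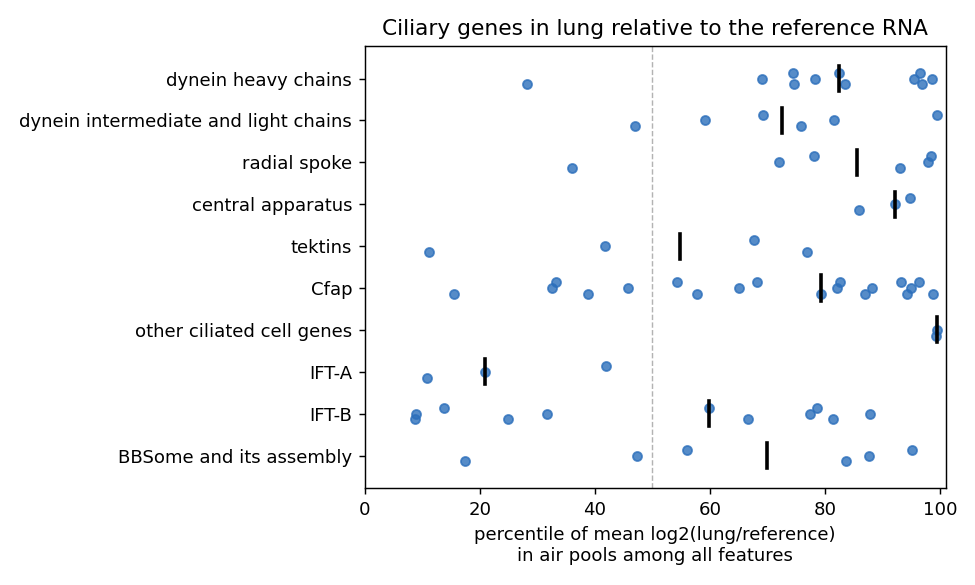
Percentile of each ciliary gene among all features, by mean log2(lung/reference) in the 4 air pools, in rows by role. Each point is a gene and each black bar the class median. The 2 other ciliated cell genes sit at the right end, and the IFT-A row of 3 genes has the lowest median, 20.9.

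The top 3 members by level were Dynlrb2, Tppp3 and Ccdc113. Dynlrb2 encodes a dynein light chain of the roadblock family. It measured 1.90, 2.43, 2.82 and 2.58 in LPS pools 1 to 4, against 2.63, 2.81, 2.24 and 2.91 in air pools 1 to 4. All 8 pools were far above the reference and the groups overlapped, with a difference of -0.21 ± 0.22 (LPS minus air, log2, SE, limma adjusted p = 0.592). Tppp3 encodes a tubulin polymerisation promoting protein used as a marker of airway ciliated cells. Its levels were 1.77, 1.75, 2.86 and 2.57 in LPS pools, against 3.08, 2.98, 2.31 and 2.16 in air pools. Here too the groups overlapped, LPS pools 1 and 2 being the lowest, and the difference was -0.39 ± 0.30 (adjusted p = 0.464). In the pools of program versions 2.2.3 and 2.2.4 taken apart, Tppp3 differed by -0.48 and -0.31. With the program version as a block the difference was -0.39 ± 0.12 and did not pass the test (limma adjusted p = 0.0626). Ccdc113 encodes a coiled-coil protein that acts in cilium assembly. It had 0.47, 0.86, 2.41 and 2.19 in LPS pools, against 2.43, 2.46, 1.47 and 2.44 in air pools. LPS pools 1 and 2 were low, LPS pools 3 and 4 were near the air pools, and the difference of -0.71 ± 0.43 did not pass the test (adjusted p = 0.352).

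Promoters of ciliary genes are known for sites of RFX transcription factors, and FOXJ1, a forkhead factor, is the known regulator of motile cilia. The RefSeq sequence from 250 bases before to 50 after the gene start (GRCm38.p6) was matched for 61 of the 71 members. The RFX half-site GTTGCC, on either strand, occurred in 22 of these 61 promoters (36.1%), against 14.1% of 27025 genes. Paired half-sites, the X-box, were searched as GTTNCC and GGNAAC separated by 0 to 3 bases and were found in 4 of 61 (6.56%), against 0.936% of all genes; these were Bbs7, Cfap20dc, Cfap298 and Ift57. An X-box can contain the half-site, so the counts overlap. The forkhead core TAAACA, on either strand, was in 13 of 61 (21.3%), against 15.1%. A match describes letters in this window and is not a binding site. The promoters below belong to the called genes Ift140 and Ift57, the high-level genes Dynlrb2 and Ccdc113, and Cfap20dc, which has an X-box with mirrored half-sites. Capitals mark a half-site or X-box, read 5′ to 3′ on the gene's strand. The windows are chr17:25015836-25016135 (plus strand) for Ift140, chr16:49699044-49699343 (plus) for Ift57, chr8:116504765-116505064 (plus) for Dynlrb2, chr8:95533850-95534149 (plus) for Ccdc113 and chr14:8666241-8666540 (minus) for Cfap20dc.
Ift140: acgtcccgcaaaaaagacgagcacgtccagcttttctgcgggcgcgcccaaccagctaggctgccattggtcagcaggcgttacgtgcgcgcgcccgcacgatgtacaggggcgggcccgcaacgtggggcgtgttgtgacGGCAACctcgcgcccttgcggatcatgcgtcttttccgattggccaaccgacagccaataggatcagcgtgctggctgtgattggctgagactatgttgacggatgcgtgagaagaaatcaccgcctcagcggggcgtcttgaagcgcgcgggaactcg
Ift57: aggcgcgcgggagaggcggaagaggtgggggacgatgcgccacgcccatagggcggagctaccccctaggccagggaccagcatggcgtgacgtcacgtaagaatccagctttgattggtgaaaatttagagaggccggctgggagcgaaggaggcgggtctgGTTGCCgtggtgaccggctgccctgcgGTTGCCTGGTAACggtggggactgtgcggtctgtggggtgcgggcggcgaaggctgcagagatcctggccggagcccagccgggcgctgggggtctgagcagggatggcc
Dynlrb2: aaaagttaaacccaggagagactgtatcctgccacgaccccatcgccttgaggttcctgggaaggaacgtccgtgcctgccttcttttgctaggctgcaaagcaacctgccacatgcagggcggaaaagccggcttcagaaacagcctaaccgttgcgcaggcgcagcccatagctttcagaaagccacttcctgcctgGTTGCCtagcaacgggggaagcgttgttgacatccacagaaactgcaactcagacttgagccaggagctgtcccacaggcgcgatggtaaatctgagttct
Ccdc113: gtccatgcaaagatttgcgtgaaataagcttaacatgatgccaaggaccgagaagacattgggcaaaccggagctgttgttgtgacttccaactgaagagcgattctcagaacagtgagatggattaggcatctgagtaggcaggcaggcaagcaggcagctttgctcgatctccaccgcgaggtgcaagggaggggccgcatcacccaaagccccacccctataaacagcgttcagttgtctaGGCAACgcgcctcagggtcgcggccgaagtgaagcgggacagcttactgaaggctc
Cfap20dc: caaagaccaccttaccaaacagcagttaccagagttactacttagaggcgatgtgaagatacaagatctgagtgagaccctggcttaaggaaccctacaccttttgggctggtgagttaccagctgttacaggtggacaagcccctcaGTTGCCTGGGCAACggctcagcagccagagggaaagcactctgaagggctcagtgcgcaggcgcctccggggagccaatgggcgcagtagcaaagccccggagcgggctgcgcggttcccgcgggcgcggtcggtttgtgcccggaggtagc
The X-box of Ift57 starts 60 bases before its gene start and that of Cfap20dc 102 bases before. Ift140, Dynlrb2 and Ccdc113 each hold a half-site without a partner that matches the searched letters exactly at 0 to 3 bases. Looser forms of the X-box were not searched, so these windows may hold a pair with mismatches.

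Between LPS and air, 2 of the 71 members rose, Ift140 and Ift57, and 0 fell at an adjusted p below 0.05 (limma, adjusted over all 20629 features tested). The share that rose was 2.82%, against 5.95% of all features, while 0.713% of all features fell, 6.67% being called in either direction. At an unadjusted p below 0.05, 4 members were higher and 4 lower (5.63% each), against 14.8% higher and 7.72% lower of all features. Differences ranged from -0.71 to 1.16 with a median of -0.14, against 0.01 over all features, and 48 members (67.6%) lay below 0, against 48.8% of all features. The groups did not overlap, with LPS higher, for Ift140 and Cfap298, and with LPS lower for Bbs2 and Dnah7b, of 70 members with values in all 8 pools. Over all features, 11.3% were separated upwards and 5.44% downwards. The pool medians over members were 0.10, 0.14, 0.27 and 0.29 in LPS pools 1 to 4, against 0.33, 0.29, 0.32 and 0.31 in air pools.

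The 95% interval of the difference had a median width of 0.745. It excluded a log2 fall of 1 or more for 66 of the 71 members, a rise of 1 or more for 67, and both for 62. In whole lung, a difference in the number of ciliated cells cannot be told apart from a difference in RNA per cell.

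**Figure D2:**
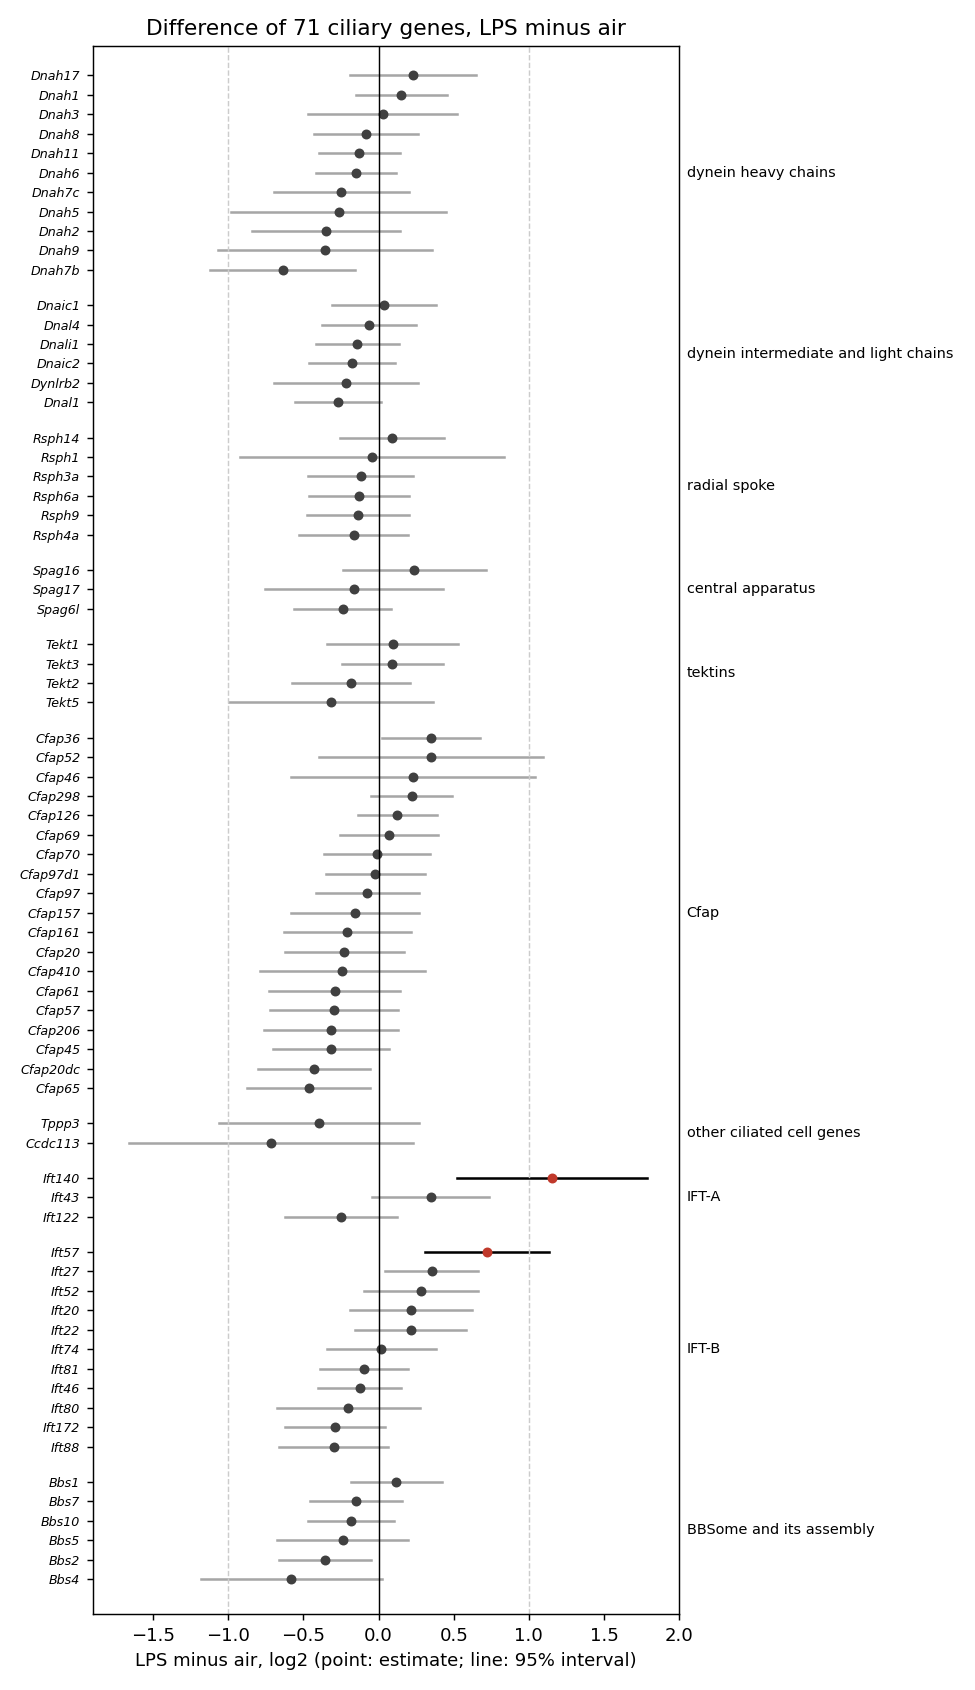
Difference of each of the 71 ciliary genes, LPS minus air on the log2 scale, with points for estimates and lines for 95% intervals, grouped by role; dashed lines mark a log2 difference of 1 in either direction. The 2 genes with red points, Ift140 and Ift57, passed the test, and most other points lie to the left of 0.

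The IFT-A complex held the member with the largest difference of the 71. Ift140, a core IFT-A subunit, had 0.26, 0.61, 0.42 and 0.31 in LPS pools, against -0.40, -0.02, -1.11 and -1.51 in air pools. Every LPS pool was above every air pool, the LPS pools lay close together and the air pools spread widely (SD 0.153 in LPS pools and 0.673 in air pools, n = 4 each), and Ift140 was 2.23-fold higher with LPS (1.16 ± 0.28 log2, 95% interval 0.53 to 1.79, limma adjusted p = 0.0377). A dimmer probe of the same gene did not repeat this rise. That probe read 0.32, 0.12, 0.08 and 0.18 in LPS pools, against 0.76, 0.77, -0.34 and 0.09 in air pools, a difference of -0.15. The call was also lost without LPS pool 1, 2, 3 or 4 or air pool 3 or 4, with differences of 0.907 to 1.4 over the 8 omissions. Ift43, a small IFT-A subunit, had 0.55, 0.33, 0.06 and 0.24 in LPS pools, against 0.18, 0.15, -0.48 and -0.05 in air pools. Its groups overlapped and its difference of 0.35 ± 0.18 did not pass the test (adjusted p = 0.276). Ift122, the other IFT-A member measured, differed by -0.25 (adjusted p = 0.408).

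Of 11 IFT-B members 1 rose, Ift57 (9.09%, against 5.95% of all features), and the class median was 0.02. Ift57, a peripheral IFT-B subunit, had 0.04, -0.31, 0.26 and 0.36 in LPS pools, against -0.67, -0.61, -0.30 and -0.96 in air pools. Only LPS pool 2 reached into the air range, and Ift57 was 1.65-fold higher with LPS (0.72 ± 0.19 log2, 95% interval 0.31 to 1.13, limma adjusted p = 0.0461). This gene had 1 probe, and the call was lost without LPS pool 1, 3 or 4 or air pool 1, 2 or 4 (differences of 0.614 to 0.737 in these 6 omissions). Ift27, a small GTPase of the same complex, had -0.50, -0.82, -0.35 and -0.37 in LPS pools, against -0.79, -0.91, -0.78 and -0.98 in air pools. LPS pool 2 lay among the air pools, and the difference was 0.35 ± 0.14 (adjusted p = 0.171). With the arrays that carried lung in Cy5 alone, Ift27 was called higher (0.56, adjusted p = 0.0451) and Ift57 was too, while Ift140 was not (1.17, adjusted p = 0.0645). Ift52, a core IFT-B subunit with the lowest air level of all members, had -0.25, -0.37, -1.03 and -0.70 in LPS pools, against -0.89, -0.91, -0.86 and -0.82 in air pools. The air pools were tight and the LPS pools lay on both sides of them (0.28 ± 0.17, adjusted p = 0.362). Ift88, needed to build cilia in mice, differed by -0.30 ± 0.16 (adjusted p = 0.313).

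Of 6 genes of the BBSome and its assembly, 0 passed the test, against 6.67% of all features, and the median difference was -0.21. At an unadjusted p below 0.05, 1 was lower, Bbs2 (16.7%), against 7.72% of all features. Bbs2, a core subunit, had -0.76, -0.97, -1.03 and -0.70 in LPS pools, against -0.56, -0.60, -0.60 and -0.27 in air pools. All LPS pools were below all air pools, by a small margin (-0.36 ± 0.14, adjusted p = 0.161). Bbs4, another subunit, had -0.17, 0.01, 0.70 and 0.76 in LPS pools, against 1.31, 1.20, 0.80 and 0.31 in air pools. Air pool 4 lay below LPS pools 3 and 4, and the difference was -0.58 ± 0.27 (adjusted p = 0.242). With the image program version as a block, Bbs4 was called lower (-0.58 ± 0.14, adjusted p = 0.0235).

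The dynein classes hold chains of the arms that power the beat, and the roadblock light chain Dynlrb2 was counted with them. They showed 0 calls among 11 heavy chains and 6 intermediate and light chains, against 6.67% of all features. Their median differences were -0.15 and -0.16. At an unadjusted p below 0.05 only Dnah7b passed, against 14.8% higher and 7.72% lower of all features. Dnah7b, an inner arm heavy chain, had -0.03, 0.51, 0.73 and 0.56 in LPS pools, against 0.91, 0.79, 0.996 and 1.62 in air pools. All LPS pools were lower, and the difference of -0.64 ± 0.22 (95% interval -1.12 to -0.15) had an adjusted p of 0.116. Dnah7b and Dnah7c are near copies, and a probe may read both; Dnah7c differed by -0.25. Dnah2, another inner arm heavy chain, had -0.43, -0.33, 0.31 and 0.22 in LPS pools, against 0.09, -0.03, 0.74 and 0.38 in air pools. LPS pools 1 and 2 were the lowest of all (-0.35 ± 0.22, adjusted p = 0.381), and 3 further probes of Dnah2 differed by -0.33, -0.58 and -0.27. The last of these, the dimmest probe of Dnah2, had no value in air pools 3 and 4. Dnah5 and Dnah9, heavy chains of the outer arm, differed by -0.27 ± 0.32 and -0.35 ± 0.32 (adjusted p = 0.666 and 0.547), and the other probe of Dnah9 differed by 0.02. Dnal1, an outer arm light chain, had 0.00, 0.13, 0.02 and 0.33 in LPS pools, against 0.42, 0.43, 0.22 and 0.49 in air pools. LPS pool 4 lay within the air range, with a difference of -0.27 ± 0.13 (adjusted p = 0.25). Dnaic2, an outer arm intermediate chain, had -0.13, -0.23, -0.11 and -0.21 in LPS pools, against -0.13, -0.11, 0.25 and 0.02 in air pools (-0.18 ± 0.13, adjusted p = 0.444).

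Radial spokes and the central apparatus, the parts that shape the waveform, also gave no call among 6 and 3 genes, against 6.67% of all features. Of these 9 genes, 0 passed an unadjusted p of 0.05, against 14.8% higher and 7.72% lower of all features. Rsph4a, a spoke head protein, had 1.18, 1.22, 1.24 and 1.09 in LPS pools, against 1.18, 1.45, 1.01 and 1.75 in air pools. The LPS pools were nearly equal and lay within the air range (-0.17 ± 0.16, adjusted p = 0.588). Rsph9, also of the spoke head, had 0.61, 0.39, 0.68 and 0.74 in LPS pools, against 0.99, 0.85, 0.67 and 0.44 in air pools (-0.14 ± 0.15, adjusted p = 0.634). Spag6l, a central apparatus protein, had 0.36, 0.67, 0.78 and 0.76 in LPS pools, against 0.78, 0.99, 0.69 and 1.06 in air pools. LPS pools 1 and 2 lay below the air range there (-0.24 ± 0.15, adjusted p = 0.366). Spag16, of the same structure, had 0.62, 0.60, 0.87 and 0.74 in LPS pools, against 0.88, 0.87, 0.09 and 0.04 in air pools. Its air pools fell into 2 pairs, pools 1 and 2 above pools 3 and 4 (0.24 ± 0.21, adjusted p = 0.547).

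Tektins, filament proteins of the doublets that are also prominent in sperm tails, had a median difference of -0.05 over 4 genes. They gave 0 calls, against 6.67% of all features. At an unadjusted p below 0.05 there were 0 tektins, against 14.8% higher and 7.72% lower of all features. Tekt2 had -0.16, -0.07, 0.20 and 0.16 in LPS pools, against -0.08, -0.03, 0.60 and 0.37 in air pools (-0.18 ± 0.18, adjusted p = 0.579). Tekt5 had -0.61, -0.38, 0.45 and 0.57 in LPS pools, against 0.11, -0.04, 0.999 and 0.22 in air pools. LPS pools 1 and 2 were below every other pool of Tekt5, LPS pools 3 and 4 were not, and the difference was -0.32 ± 0.31 (adjusted p = 0.579).

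The Cfap genes, a mixed group named for presence in cilia or flagella, had 0 calls in 19 and a median of -0.15, with 1 higher (5.26%) and 2 lower (10.5%) at an unadjusted p below 0.05, against 14.8% and 7.72% of all features. Cfap65, a central apparatus protein, had 0.60, 0.79, 0.08 and 0.21 in LPS pools, against 0.70, 0.70, 1.04 and 1.11 in air pools. LPS pool 2 reached the air range (-0.47 ± 0.19, adjusted p = 0.174), and with program version as a block Cfap65 was called lower (-0.47 ± 0.11, adjusted p = 0.0283). Cfap20dc had -0.21, 0.15, 0.30 and 0.01 in LPS pools, against 0.35, 0.29, 0.86 and 0.47 in air pools. LPS pool 3 overlapped air pool 2 by a narrow margin, the difference was -0.43 ± 0.17 (adjusted p = 0.164), and its other probe differed by -0.34. Cfap298 and Cfap36, named after their values were seen, were among the 6 Cfap genes with a difference above 0. Cfap298 had 0.35, 0.34, 0.60 and 0.48 in LPS pools, against 0.33, 0.18, 0.10 and 0.27 in air pools (0.22 ± 0.12, adjusted p = 0.319). Cfap36 differed by 0.35 ± 0.15 (adjusted p = 0.196). Over all classes, 12 members had 15 further probes, and 8 of these differed in the same direction as the brightest probe. The Dnah2 probe without values in air pools 3 and 4 is among these 8.

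**Figure D3:**
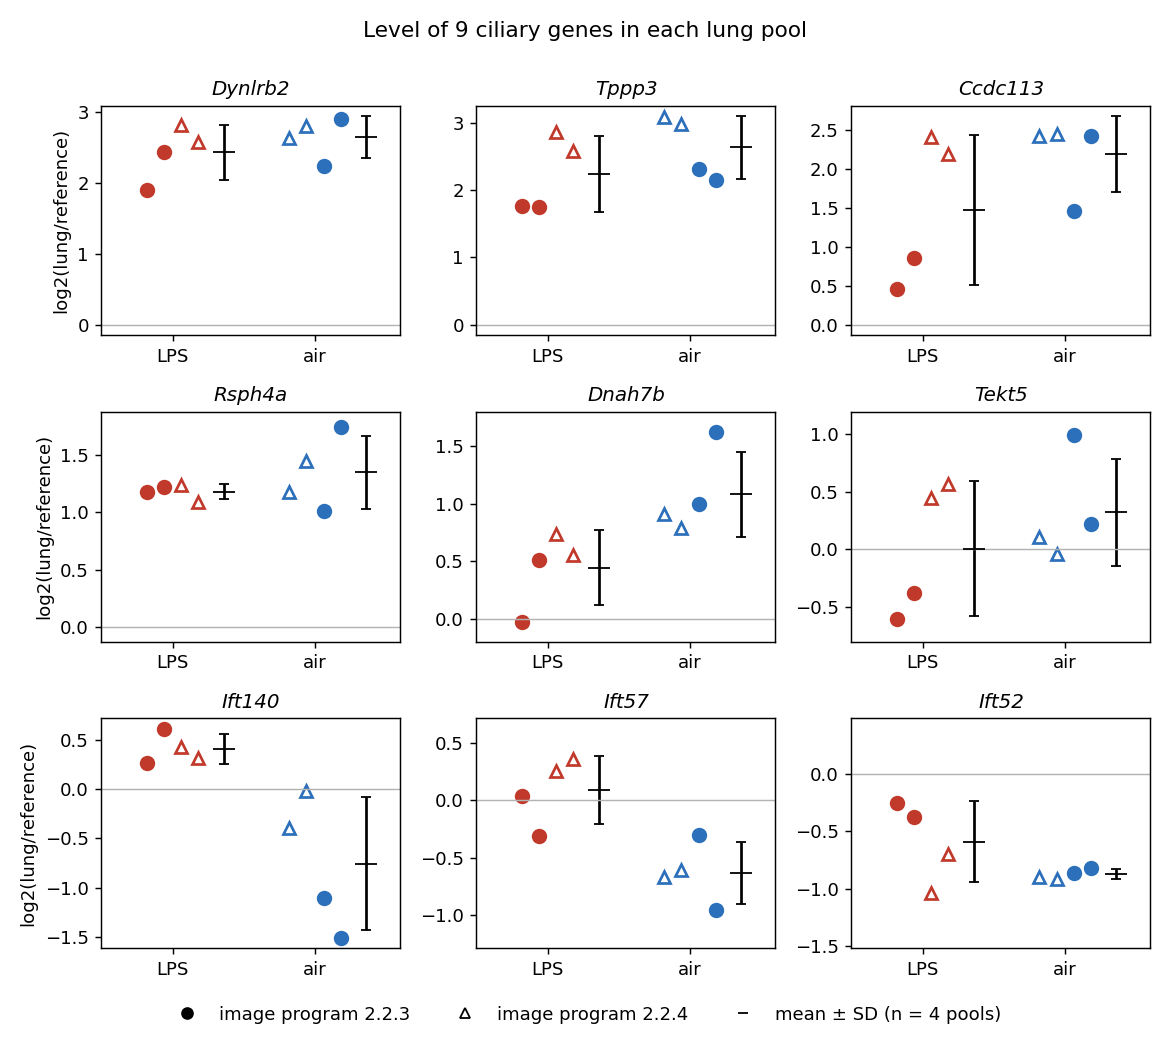
Level of 9 ciliary genes, log2(lung/reference), in each LPS pool (red, left) and air pool (blue, right), with filled circles for image program 2.2.3, open triangles for 2.2.4 and bars for mean ± SD (n = 4 pools). Ift140 separates the groups, while LPS pools of Ccdc113 and Tekt5 fall into 2 pairs by program version.

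The calls differed between the pools read with each program version, among all features as well as among members. Each version holds 2 LPS and 2 air pools. In the version 2.2.3 pools alone, 4 of 70 members tested were called higher and 10 of 70 lower. Of all features 14.7% were called higher and 8.36% lower (23.1% in either direction). The higher genes were Cfap36, Ift140, Ift43 and Tekt1. The lower ones were Ccdc113, Cfap20dc, Cfap410, Cfap45, Cfap57, Dnah2, Dnah7b, Ift88, Tekt2 and Tekt5. In the version 2.2.4 pools alone, of 71 members tested, Ift57 was called higher and 0 lower by limma. Of all features 4.35% were called higher and 1.23% lower (5.58% in either direction). At an unadjusted p below 0.05, 6 members (8.45%) were lower in those pools, against 11.9% of all features. The median difference over members was -0.20 in the 2.2.3 pools and -0.03 in the 2.2.4 pools, against 0.06 and 0.00 over all features.

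The difference between the versions was itself tested by an interaction term. The air arrays of version 2.2.3 all carry image week 8 and those of version 2.2.4 week 4, so program version and week among the air pools cannot be told apart in this test or in the values within a version. The interaction passed for 6 of 70 members, a share close to the 8.95% of all features. Ift140 differed by 1.74 in the 2.2.3 pools and 0.57 in the 2.2.4 pools (adjusted p of the difference 0.0423), and Tekt1 by 0.59 and -0.40 (adjusted p = 0.0302). Tekt5 differed by -1.11 and 0.47 (adjusted p = 0.0317), Dnah2 by -0.94 and 0.24 (adjusted p = 0.0258), Cfap57 by -0.77 and 0.18 (adjusted p = 0.0307) and Tekt2 by -0.60 and 0.24 (adjusted p = 0.0375). For Ccdc113 the LPS minus air values were -1.29 and -0.14, and the difference between versions had an adjusted p of 0.1002. For Ift57 they were 0.50 and 0.95 (adjusted p of the difference 0.343). In the fit with version as a block, 11% of all features were called, 8.72% higher and 2.26% lower; Ift140 and Ift57 were called higher (adjusted p = 0.0137 and 0.0267) and Bbs4 and Cfap65 lower.

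**Figure D4:**
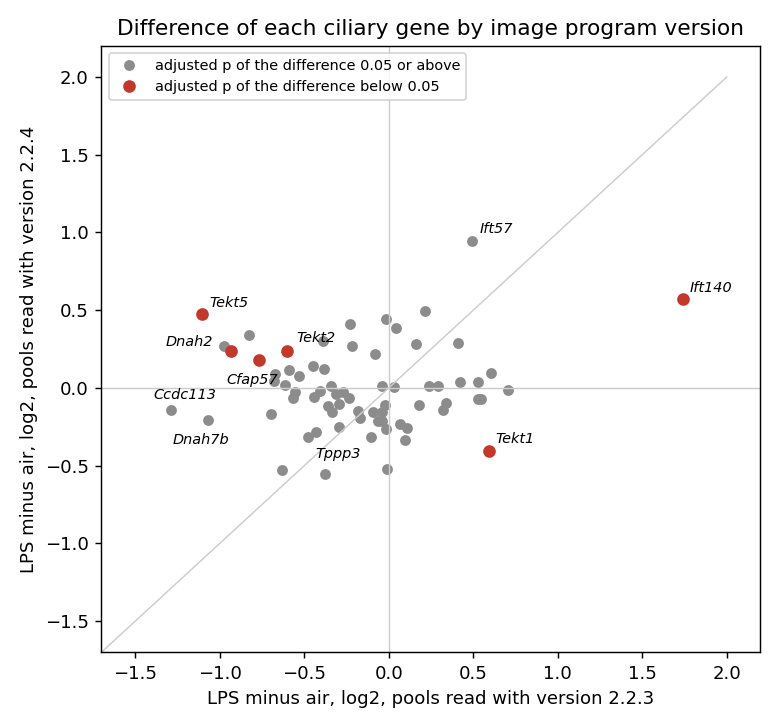
LPS minus air difference of each ciliary gene, log2, in the pools read with version 2.2.3 (horizontal axis) against those read with version 2.2.4 (vertical axis), with the line of equal values. Red points mark the 6 genes whose differences between versions passed the test; Dnah2, Cfap57, Tekt2 and Tekt5 lie left of 0 and above it, and Ift140 and Tekt1 lie right of 0.

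Few of the other cilia genes passed the test. Of 13 measured regulators of ciliogenesis, 1 rose and 0 fell (1 lower at an unadjusted p below 0.05), with a median difference of -0.05. The riser was E2f4, a transcription factor that takes part in making multiciliated cells and in the cell cycle, with a difference of 0.55 ± 0.14 (adjusted p = 0.0387). Foxj1 itself had 0.97, 0.97, 1.37 and 1.33 in LPS pools, against 1.84, 1.74, 0.73 and 1.11 in air pools. The LPS pools of Foxj1 lay within the air range, and the difference was -0.19 ± 0.24 (adjusted p = 0.679). Of 49 other motile cilia genes, 1 rose and 0 fell, and the median was -0.10; at an unadjusted p below 0.05, 10 (20.4%) were lower, against 7.72% of all features. The riser was Tubb4b, a beta-tubulin of axonemes that other cells also express (1.03 ± 0.20, adjusted p = 0.0133). Among 39 genes of transport motors and the ciliary gate 1 rose, Rab8a, a GTPase of vesicle traffic to the cilium (0.51 ± 0.13, adjusted p = 0.0394), and 0 fell, none at an unadjusted p below 0.05. Among 27 centriole and basal body genes 1 rose, Plk4, the kinase that starts centriole duplication (0.60 ± 0.14, adjusted p = 0.0332), and 0 fell, none at an unadjusted p below 0.05. The share of all features that rose was 5.95%.

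Markers of leukocytes rose in the same lungs. Of 16 macrophage markers 9 rose, with mean list levels of 1.27 to 1.58 in LPS pools, against -0.19 to 0.42 in air pools. Of 15 neutrophil markers 8 rose, with mean levels of 1.46 to 2.25 in LPS pools, against 0.10 to 0.75 in air pools. Both lists separated the groups completely. The mean level of the 49 other motile cilia genes was 0.26 to 0.41 in LPS pools, against 0.34 to 0.48 in air pools. More leukocytes cannot be told apart here from more marker RNA per cell. Whether leukocyte RNA had a part in the differences of the ciliary genes, Ift140 and Ift57 included, was not tested. Club cells are secretory neighbours of the ciliated cells. Of 19 club cell markers 3 rose and 3 fell (15.8% each), against 5.95% and 0.713% of all features. Their median was -0.25. Of 10 endothelial cell markers 0 passed the test, 8 lay below 0 and the median was -0.17. Alveolar type 2 cell markers had 1 riser of 18 and a median of 0.42, and type 1 cell markers 1 riser of 12 and a median of 0.06. Of 11 basal and goblet cell markers 0 passed the test in either direction (1 lower at an unadjusted p below 0.05), and their median was -0.21. Spermatid genes, which would mark other cells with axonemes, had 1 riser of 14 and a median of 0.00.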

How the data were processed

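Lung RNA pools of LPS and air mice were compared, the pool being the replicate (4 per group) and its 2 dye-swapped arrays 1 value. Per the file headers, the intensity columns are integrated spot values from TIGR Spotfinder version 2.2.3 or 2.2.4; the deposited intensities had the background subtracted and were not normalised. The deposited score per spot (SF) has no definition in the sources used. The authors' deposited value table holds log2 ratios of lung over reference, except for 1 array that is on the log10 scale in the deposited column; its normalisation is not stated in those sources, and it was used as an alternative.

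With R 4.3.3 and limma 3.58.1, ratios were loess-normalised within 15 arrays (without the air pool 4 array of mixed images), turned to log2(lung/reference), averaged to pools and tested two-sided with lmFit and eBayes, adjusting p-values by Benjamini-Hochberg over 20629 features at a threshold of 0.05. At least 3 pools per group were required; Cfap97d1 lacked air pool 4. The brightest of several probes stood for a gene. The 71 members matched RefSeq (assembly GRCm38.p6) by gene number. The number of pools limits the precision, and the main fit covered all 20629 features.

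The members, gene lists and tests were chosen with earlier results of these data known. Genes named were those past the threshold, the 2 smallest p in each class, the 3 highest and 3 lowest air levels, and Dynlrb2, Tppp3, Ccdc113 and Foxj1; of other lists, up to 4 past the threshold. Further genes were named after their values were seen. The scripts were tested on simulated data. Alternatives covered the arrays and dyes used, centring, dim spots, probes, program version, the pool number as a block, and leaving out each pool.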

Additional observations from a re-analysis of the deposited data

Results flagged for a closer look

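In 2 of 44 groups of 4 pools examined, for the named genes in LPS and in air, 1 pool stood far from the other 3 for its spread. Chance gives about 1 such group in 20. The Ccdc113 level in air pool 3 was 1.47, and the nearest of the other air pools was at 2.43. The Bbs2 level in air pool 4 was -0.268, and the nearest of the other air pools was at -0.564; air pool 4 rests on 1 array.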

How the results depend on the processing

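The count of members higher after LPS was 2, and it was 0 with all 16 arrays, 0 with median centring in place of loess, 0 in the authors' value table, 1 with the mean of all probes of a gene, 4 in the version 2.2.3 pools alone and 1 in the version 2.2.4 pools alone. Leaving out each pool gave 0 to 1. The count of members lower was 0, and it was 2 with program version as a block and 10 in the version 2.2.3 pools alone. The median difference over members of -0.14 was -0.0668 with all 16 arrays and -0.0277 in the version 2.2.4 pools alone. All features higher and lower numbered 1228 and 147, against 476 and 25 with all 16 arrays, 686 and 49 with median centring, 3003 and 1704 in the version 2.2.3 pools, 902 and 256 in the version 2.2.4 pools, 1798 and 467 with the version block, 795 and 62 with the replicate block, and 666 to 1152 and 45 to 162 over the omitted pools. For Ift140 the adjusted p ran between 0.0505 and 0.26 in the settings that lost its call (the highest with the mean of its 2 probes), and no called value changed direction. The cause was not tested. Pools with the same number deviated together at r of -0.037, -0.263, -0.048 and -0.252. Same-numbered pools were always read with different program versions, so these values cannot show whether the numbers pair them. With the pool number as a replicate block, 0 members were called higher, with Ift140 at a limma adjusted p of 0.0529 and Ift57 at 0.0923. Of the values of single named members under the alternatives, 423 kept their direction and side of the threshold, 24 lost a call, 10 gained one and 5 changed sign without a call. With lung in Cy5 alone the count higher was again 2, of Ift27 and Ift57. The 4 pools per group limit the precision, as the intervals show.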
